A study of Homo sapiens with 4 samples.

Results

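Luminal mammary genes were examined as 10 genes, namely ESR1, GATA3, FOXA1, ELF5, KIT, ALDH1A3, MUC1, PRLR, SLPI and XBP1. They were taken by symbol from a deposited table of ATAC-seq regions, a measure of DNA opened to a transposase, and every region carrying one of these symbols was kept whether at a promoter or far from it. This gave 27 of 58127 regions, which belong to 9 of the 10 genes. ELF5 had no region in the table. All libraries were made from MCF10A, an established non-tumorigenic line of human mammary epithelium. In 1 group the cells carried a hairpin against SNHG8d (shG8d), and in the other a control hairpin (shNC). Each group has 2 libraries, lettered A and B. The labels do not say whether A and B were separate cultures or clones, and the spread behind each p-value may therefore be technical only.

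The luminal layer of the mammary gland lines the ducts and alveoli and contains hormone-sensing cells and secretory progenitor cells, beneath which lies a basal, myoepithelial layer. In hormone-sensing cells the estrogen receptor ESR1 works together with the pioneer factor FOXA1 and with GATA3, a factor needed to keep luminal cells differentiated. The progenitor and alveolar branch is marked by the ETS factor ELF5, which acts downstream of the prolactin receptor PRLR, by the receptor tyrosine kinase KIT and by the retinaldehyde dehydrogenase ALDH1A3. MCF10A cells are generally described as basal-like and as lacking estrogen receptor expression.

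Libraries are named here by sequencing depth because the group labels are exchanged between parts of the table. A library can be recognised by the normalized count that a single read received, which was 0.842 (A) and 0.807 (B) in a deeper pair and 1.21 (A) and 1.17 (B) in a shallower pair. In the common regions the deeper pair is labelled shG8d and the shallower pair shNC. In the regions named as specific to shNC or to shG8d the deeper pair is labelled shNC and the shallower pair shG8d. Which labelling is right was not settled, so all differences below are log2 of deeper over shallower with the label given by set, and none is a direction of the knockdown. Reads within regions numbered 8124488 and 8111839 for the deeper pair, against 4457248 and 4344212 for the shallower. Depth and group cannot be told apart, because each pair is 1 group in every part of the table. Markers of mammary epithelium had a promoter region in 9 of 10 genes, against 1 of 5 for hematopoietic, 1 of 5 for fibroblast and 0 of 4 for endothelial markers. TP63, the basal epithelial factor, was the 1 epithelial marker without such a region.

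A promoter region here is one annotated as promoter or lying within 1 kb of a transcription start site (TSS). Only 4 of the 10 luminal genes had one: ALDH1A3, MUC1, SLPI and XBP1. ESR1, GATA3, FOXA1, KIT and PRLR were represented by other regions alone, the nearest of which lay 21426 bp from a TSS for ESR1, 1043 bp for GATA3, 14727 bp for FOXA1, 3785 bp for KIT and 12091 bp for PRLR. Of all protein-coding genes with any region, 69.3% had a promoter region, against 4 of 9 luminal genes. A basal and myoepithelial list of 25 genes had 22 with any region, of which 18 had a promoter region. A wider list of 40 luminal genes had 32 with any region, of which 21 had one. A gene without a listed region is not thereby shown to be closed, since how the authors chose regions for listing was not given in the sources used.

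The upstream sequences of a few members show that a promoter dense in CpG dinucleotides is found on both sides of this divide. The 250 bases before the most upstream start site of each gene were read from RefSeq promoters (GRCh38.p14), which matched 9 of the 10 genes. The regions themselves are placed by distance to a TSS in hg19, so no overlap of coordinates was computed. ALDH1A3 and XBP1 are shown because a region lay 50 bp after and 110 bp before their TSS, and FOXA1 and ELF5 because none lay near theirs. Capitals mark each CpG.
ALDH1A3 (chr15:100879581-100879830, strand plus): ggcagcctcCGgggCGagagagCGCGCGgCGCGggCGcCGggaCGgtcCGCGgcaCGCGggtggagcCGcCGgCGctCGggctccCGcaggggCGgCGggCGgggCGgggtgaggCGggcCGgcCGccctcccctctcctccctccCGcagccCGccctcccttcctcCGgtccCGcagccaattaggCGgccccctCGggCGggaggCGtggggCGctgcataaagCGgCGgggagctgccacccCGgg
XBP1 (chr22:28800570-28800819, strand minus): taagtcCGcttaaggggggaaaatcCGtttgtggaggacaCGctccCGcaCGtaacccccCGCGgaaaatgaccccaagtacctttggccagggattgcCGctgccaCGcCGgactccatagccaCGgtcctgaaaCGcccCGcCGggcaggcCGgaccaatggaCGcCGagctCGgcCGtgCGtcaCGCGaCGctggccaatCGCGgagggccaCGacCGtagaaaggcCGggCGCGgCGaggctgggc
FOXA1 (chr14:37595250-37595499, strand minus): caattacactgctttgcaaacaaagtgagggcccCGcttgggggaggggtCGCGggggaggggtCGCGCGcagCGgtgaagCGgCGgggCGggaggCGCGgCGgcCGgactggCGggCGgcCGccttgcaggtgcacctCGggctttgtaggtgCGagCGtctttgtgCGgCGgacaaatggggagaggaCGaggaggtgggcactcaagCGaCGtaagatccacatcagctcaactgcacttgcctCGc
ELF5 (chr11:34511725-34511974, strand minus): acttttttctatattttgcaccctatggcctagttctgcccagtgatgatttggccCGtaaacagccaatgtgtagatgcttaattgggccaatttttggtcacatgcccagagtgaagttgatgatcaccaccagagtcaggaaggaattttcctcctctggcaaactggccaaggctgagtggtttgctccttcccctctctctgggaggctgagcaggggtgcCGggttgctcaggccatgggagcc

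The ALDH1A3 window held 38 CpG dinucleotides and the XBP1 window 31, against a median of 10 over 27305 genes. FOXA1 had 26 and KIT 34 without a promoter region in the table. ELF5 had 2, ESR1 3 and PRLR 6, while MUC1 and GATA3 had 11 each. ESR1 and GATA3 each had 6 start sites listed, and PRLR, MUC1 and XBP1 had 2 each. Only the most upstream one was read, so these counts do not describe the other promoters of those genes. Several short motifs were searched on both strands. The GC box (GGGCGG) occurred in ALDH1A3, FOXA1, KIT and MUC1 and in 42.2% of all windows. A CCAAT box (CCAAT) occurred in ALDH1A3, ELF5, ESR1 and XBP1 and in 33.0% of windows. MUC1 alone among the members had the TATA box letters (TATAAA, 11.2% of windows), starting 24 bases before its start site. A forkhead motif (TGTTTAC, 3.01% of windows) was found in ELF5 and an ETS motif (CCGGAAG, 8.78%) in GATA3. The letters ACGTG, which lie in elements of the unfolded protein response but also in E-boxes, were found in XBP1 and KIT (18.6% of windows). No member window held the AP-1 motif TGANTCA (6.57% of windows) or the GATA motif AGATAA (9.40%). These matches describe letters in a window and not bound sites.

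Of the 27 luminal regions 3 stood higher and 3 lower in the deeper pair (limma, Benjamini-Hochberg adjusted p under 0.05 over the whole table). In the table as a whole 11.1% of regions were called higher and 12.4% lower, so the luminal count of 6 calls lies near the background. The median log2 difference was −0.21 over luminal regions and −0.02 over all regions. The libraries of the pairs did not overlap at 15 of the 27 regions, which compares with 63.4% of the table. By set, 17 luminal regions are common, 9 shNC-specific and 1 shG8d-specific. These are 63.0%, 33.3% and 3.70% of luminal regions, against 58.3%, 36.9% and 4.74% of the table. By annotation, 4 were promoters, 10 intronic, 12 intergenic and 1 exonic. Widths of regions were not used here, so levels are compared between libraries and not between regions. An open region in fewer cells and a less open region in all cells cannot be told apart in such bulk libraries.

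**Figure D1:**
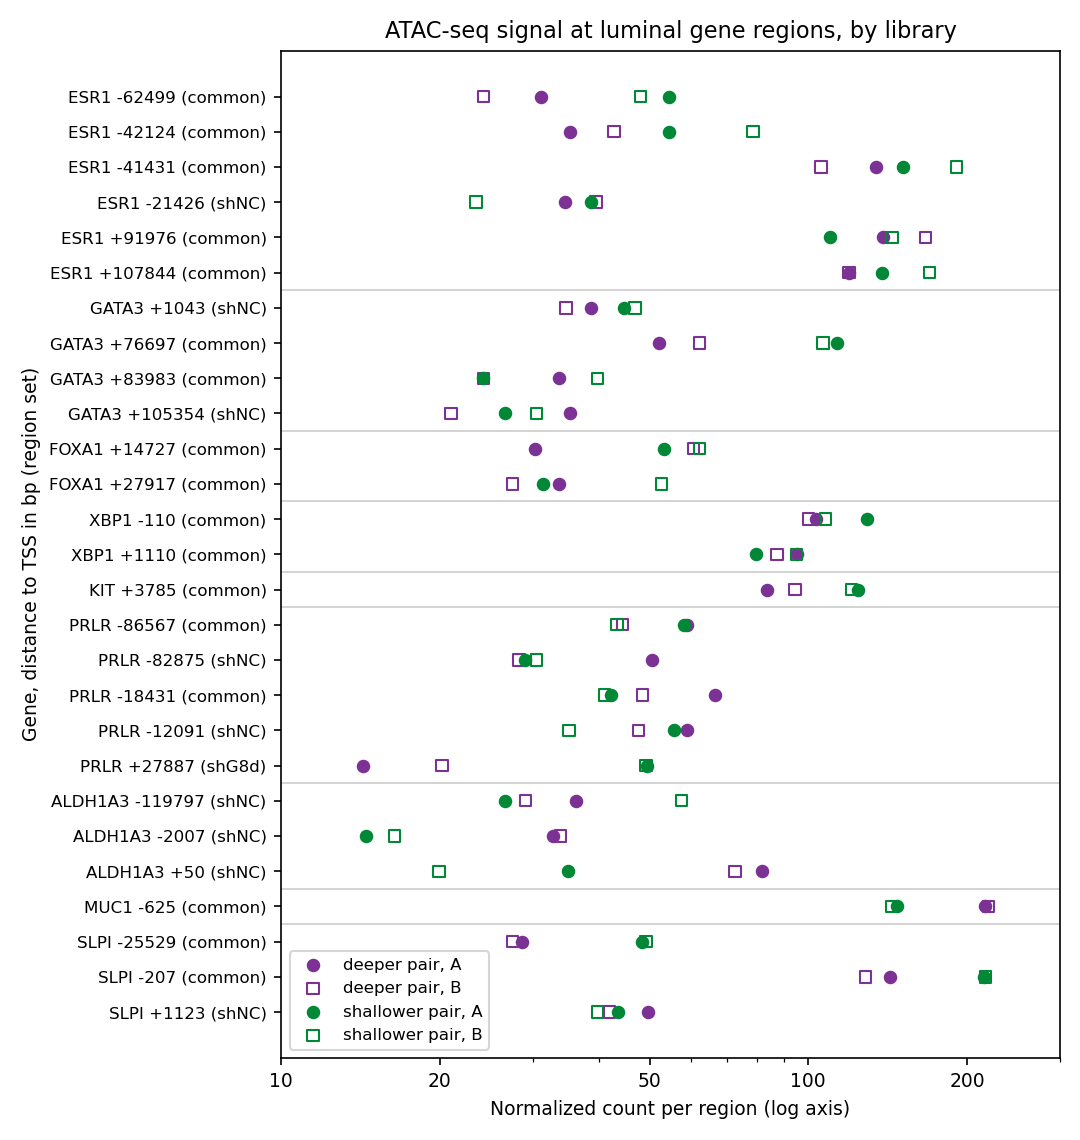
Normalized count in each of the 4 libraries (log axis) at the 27 regions of 9 luminal genes, labelled by distance to the TSS and by region set (common, or specific to shNC or shG8d). Filled circles are library A and open squares library B. At the ALDH1A3 promoter both deeper libraries (81.6 and 72.6) stand above both shallower ones (35.0 and 19.9), and at the SLPI promoter both stand below.

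Of the 7 regions of the secreted, surface and enzyme genes 3 were called higher and 1 lower. Promoters make up 3 of the 7, a class in which 2135 of all 9614 regions were called higher and 973 lower. ALDH1A3, which makes retinoic acid from retinaldehyde and marks luminal progenitors, had all 3 of its regions in the shNC-specific set, on chromosome 15. Its promoter region, annotated 50 bp after the TSS, had 81.6 (A) and 72.6 (B) normalized counts in the deeper pair, against 35.0 and 19.9 in the shallower, from 97, 90, 29 and 17 reads. The pairs did not overlap, and the mean of 77.1 ± 6.4 in the libraries labelled shNC there stood above 27.5 ± 10.7 in those labelled shG8d (SD, n = 2 each). The log2 difference of 1.51 (SE 0.315, limma adjusted p = 0.00266) was the largest increase among the luminal regions. In the shNC-specific set 13.2% of all regions were called higher and 0.979% lower, so the direction of a call there goes largely with the set, whose regions are named for the pair labelled shNC. The call was kept in all 12 alternative settings tried, of which the one without a filter repeats the reported fit because 0 regions were removed, with an adjusted p between 1.54e-07 and 0.0408.

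A second ALDH1A3 region, annotated as intergenic 2007 bp before the TSS, also stood higher in the deeper pair. It had 32.8 and 33.9 normalized counts there and 14.5 and 16.4 in the shallower pair, with no overlap. The log2 difference was 1.06 (SE 0.382), but the call was marginal (limma adjusted p = 0.0494), rested on 12 and 14 reads in the shallower libraries and was lost in 7 of 11 alternatives, including each of the fits without deeper library A or B or shallower library A (adjusted p = 0.326, 0.336 and 0.0538). The remote ALDH1A3 region, 119797 bp before the TSS, did not follow. Its values were 36.2 and 29.1 in the deeper pair, against 26.6 and 57.4 in the shallower, so the pairs overlapped (log2 difference −0.26, SE 0.366, limma adjusted p = 0.639).

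MUC1, a membrane mucin of the apical surface, had 1 region, annotated as promoter 625 bp before a TSS on chromosome 1 and in the common set. It had 216.3 and 219.5 normalized counts in the deeper pair, against 147.4 and 144.1 in the shallower. Both deeper libraries, labelled shG8d there, lay above both shallower ones, and the libraries of each pair lay close together. The log2 difference was 0.58 (SE 0.177, limma adjusted p = 0.0243). The call was lost when libraries were scaled to equal totals alone, where the difference fell to 0.23 (adjusted p = 0.373), and without deeper library A or B (adjusted p = 0.192 for each).

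SLPI encodes a secreted inhibitor of leukocyte proteases and was the gene of this group that stood lower in the deeper pair. Its promoter region, 207 bp before the TSS on chromosome 20 in the common set, had 143.1 and 128.3 normalized counts in the deeper pair, against 215.0 and 216.8 in the shallower. The pairs did not overlap, and the libraries labelled shG8d there were the lower ones. The log2 difference was −0.67 (SE 0.181, limma adjusted p = 0.0125). Without deeper library A or B the adjusted p was 0.0813 and 0.162. The region 25529 bp before the TSS, also common, had 28.6 and 27.4 in the deeper and 48.3 and 49.2 in the shallower pair, again without overlap, at a log2 difference of −0.78 (SE 0.314) that did not pass (limma adjusted p = 0.0780). An intronic region 1123 bp after the TSS, in the shNC-specific set, had overlapping values of 49.7 and 42.0 against 43.5 and 39.8 (log2 difference 0.13, limma adjusted p = 0.786).

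Among the transcription factors 1 of 14 regions passed, a region near GATA3. GATA3 had 4 regions on chromosome 10. The one that passed is intergenic, 76697 bp after the TSS and common, and had 52.2 and 62.1 normalized counts in the deeper pair, against 113.6 and 106.6 in the shallower. The libraries labelled shG8d there thus held the lower level without overlap, at a mean of 57.2 ± 7.0 against 110.1 ± 4.9 (SD, n = 2 each). The log2 difference of −0.94 (SE 0.231) passed, with a limma adjusted p of 0.00743. The call held in 11 of 12 alternatives and was lost without deeper library A (−0.81, adjusted p = 0.102). Its neighbours were not called. The regions 83983 and 105354 bp after the TSS overlapped between pairs. They were at −0.12 (SE 0.368, limma adjusted p = 0.848) and −0.06 (SE 0.372, limma adjusted p = 0.928). Each library held only 20 to 42 reads there, so a difference of either sign is not excluded. The region closest to GATA3, in exon 2 of 6 and 1043 bp after a TSS, had 38.7 and 34.7 in the deeper and 44.7 and 46.9 in the shallower pair. These did not overlap, but −0.31 (SE 0.302) fell short of the threshold (limma adjusted p = 0.481).

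ESR1 had the most regions, 6 on chromosome 6, and none passed. The 3 common regions placed before a TSS, which is not the same TSS for all of them, were each lower in both deeper libraries than in both shallower ones. The deeper libraries are labelled shG8d there. The region 62499 bp before a TSS had 31.1 and 24.2 against 54.4 and 48.0 normalized counts, a log2 difference of −0.87 (SE 0.318) that lay just outside the threshold (limma adjusted p = 0.0528). Those 42124 and 41431 bp before a TSS lie in intron 2 of 9, within 1 kb of each other, and are not independent. Values were 35.3 and 42.8 against 54.4 and 78.5 at the first and 134.7 and 105.7 against 151.0 and 191.0 at the second. Their log2 differences were −0.73 (SE 0.290) and −0.51 (SE 0.203), with limma adjusted p of 0.0724 and 0.0763.

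The other ESR1 regions were mixed. Regions 91976 and 107844 bp after a TSS, both in intron 3 of 7, had 0.27 and −0.35 (limma adjusted p = 0.350 and 0.199), and the shNC-specific region 21426 bp before a TSS had 0.29 (limma adjusted p = 0.587). When the fit was restricted to the common regions, those at 62499 and 42124 bp passed (limma adjusted p = 0.0202 and 0.0425). In that fit 18.7% of all common regions were called lower. With equal library totals 4 of the 6 ESR1 regions passed, all lower and common, where 36.6% of all common regions were called lower. These near-threshold values thus depend on the processing. The 62499 bp region also passed without shallower library B (adjusted p = 0.0486) and with limma voom (adjusted p = 0.0393). The 42124, 41431 and 107844 bp regions passed without shallower library A (adjusted p = 0.00999, 0.00403 and 0.0405).

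FOXA1 and XBP1 showed no called region. FOXA1 had 2 intergenic common regions on chromosome 14, 14727 and 27917 bp after the TSS, with 30.3 and 60.5 against 53.2 and 62.1 normalized counts at the nearer and 33.7 and 27.4 against 31.4 and 52.7 at the farther. The libraries overlapped at both, and the log2 differences of −0.41 each had SEs of 0.319 and 0.344 (limma adjusted p = 0.368 and 0.411). XBP1, a factor of the secretory and unfolded protein response, had 103.5 and 100.1 against 129.3 and 107.8 at its promoter, 110 bp before the TSS on chromosome 22, and 95.1 and 87.2 against 79.7 and 94.9 in intron 1 of 5. The promoter libraries did not overlap but differed by only −0.21 (SE 0.207, limma adjusted p = 0.487), and the intronic ones overlapped at 0.06 (SE 0.222, limma adjusted p = 0.862).

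**Figure D2:**
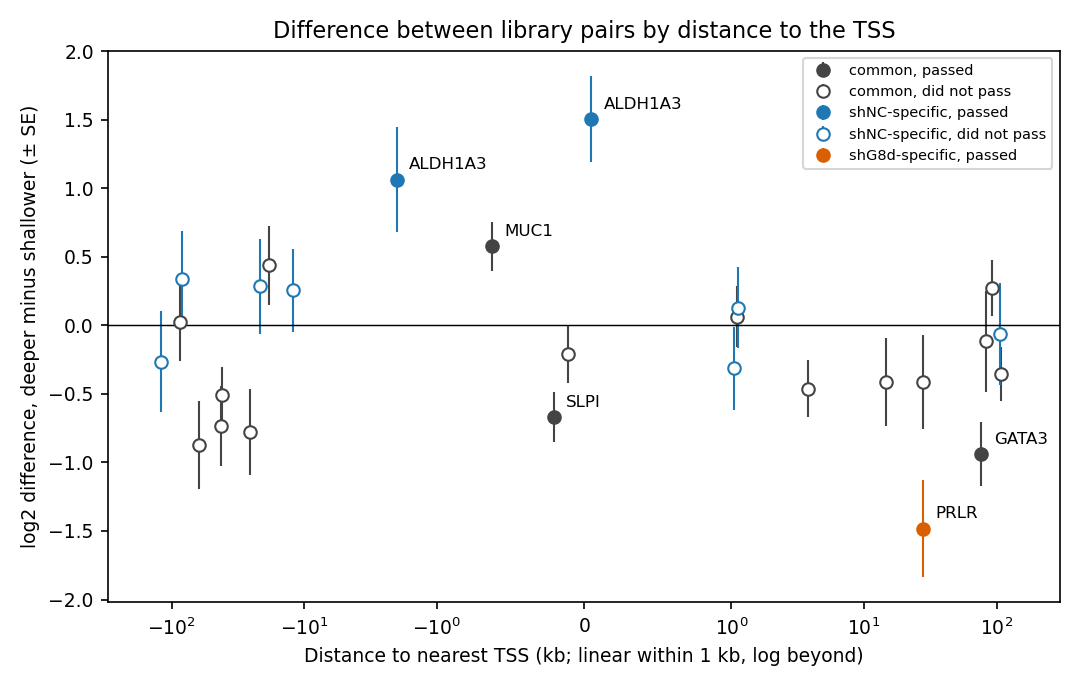
Log2 difference between the deeper and the shallower pair (error bars, SE) against distance to the nearest TSS in kb, linear within 1 kb and logarithmic beyond, for the 27 luminal regions. Filled points passed (limma adjusted p under 0.05), and colours give the region set. Filled points of ALDH1A3 and MUC1 lie above 0, and those of SLPI, GATA3 and PRLR below.

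Of the receptors, PRLR had 5 regions on chromosome 5 and KIT 1 on chromosome 4. Of these 6, 1 passed, where 11.1% of all regions were called higher and 12.4% lower. The region that passed lies in intron 1 of 9 of PRLR, 27887 bp after the TSS, and was the only luminal region of the shG8d-specific set. It had 14.3 and 20.2 normalized counts in the deeper pair, labelled shNC there, and 49.5 and 49.2 in the shallower pair, labelled shG8d, from 17, 25, 41 and 42 reads. The pairs were far apart. The log2 difference was −1.48 with an SE of 0.354 (limma adjusted p = 0.00609), and the call was lost without deeper library A (−1.25, adjusted p = 0.0712). In that set 70.0% of all regions were called lower and the median log2 difference was −1.20, so the value is near what the set shows throughout.

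The other PRLR regions did not pass. Those 86567, 82875 and 12091 bp before a TSS overlapped between pairs, with log2 differences of 0.03, 0.34 and 0.26 (limma adjusted p = 0.957, 0.519 and 0.575). The region 18431 bp before a TSS had 66.5 and 48.4 in the deeper and 42.3 and 41.0 in the shallower pair, without overlap, at 0.44 (SE 0.288, limma adjusted p = 0.286). The KIT region, in intron 1 of 20 and common, had 83.3 and 94.4 against 124.4 and 120.7 normalized counts. Both libraries labelled shG8d there were the lower ones (log2 difference −0.46, SE 0.208), without passing the test (limma adjusted p = 0.113).

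The luminal regions of each set are compared here with all regions of that set. In the common regions 1 of 17 was higher and 2 were lower, where 10.7% of all common regions were called higher and 15.0% lower. The median was −0.41 over the luminal and −0.12 over all common regions, and 12 of the 17 estimates were below 0, as were 19702 of all 33913. At a limma unadjusted p under 0.05 there were 8 of the 17 common luminal regions, against 39.9% of all common regions. With fits by set 1 of the 17 was higher and 5 were lower, against 12.5% and 18.7%. In the shNC-specific regions 2 of 9 were higher and 0 lower, both of them at ALDH1A3, where 13.2% of the set was called higher and 0.979% lower. At an unadjusted p under 0.05 the same set had 2 of 9 luminal regions, against 25.3% of the whole set, and with limma voom on recovered reads 1 was higher and 0 lower, against 14.2% and 1.31%. The medians were 0.26 for luminal and 0.24 for all shNC-specific regions.

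**Figure D3:**
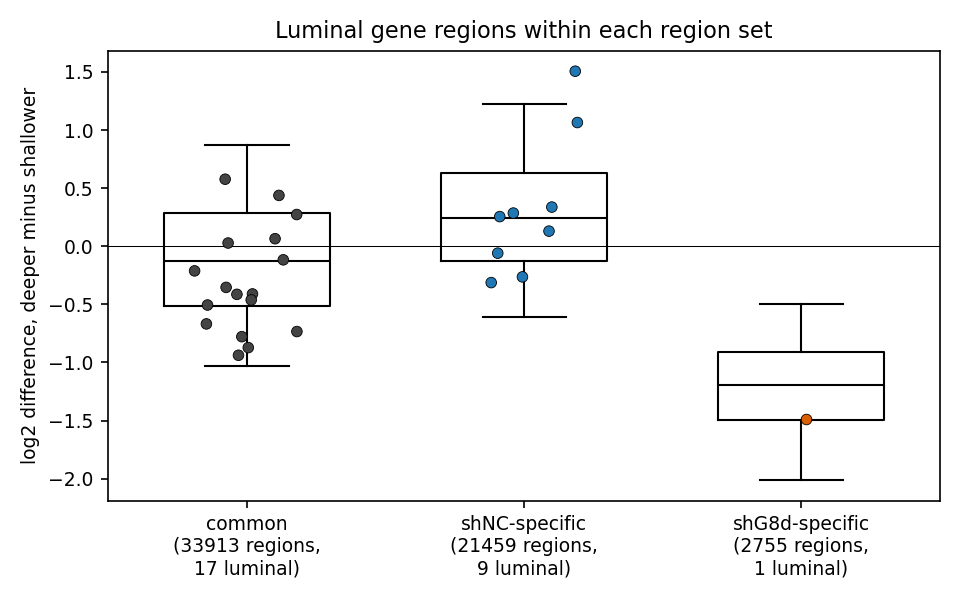
Log2 difference between the deeper and the shallower pair for luminal regions (points) within each region set. Boxes show the quartiles and whiskers the 5th to 95th percentile of all regions of the set. The ALDH1A3 regions at 1.51 and 1.06 are the highest points of the shNC-specific set, and the single shG8d-specific point is PRLR at −1.48.

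Related genes were compared over the promoter region of highest mean signal per gene, of which the table gave 11487. Of these 20.3% were called higher and 10.7% lower, and the median log2 difference was 0.14. Among the 4 luminal genes with such a region 2 were higher (ALDH1A3 and MUC1) and 1 lower (SLPI), with a median of 0.18. In the wider luminal list 2 of 21 were higher and 4 lower, with a median of 0.06. The 2 higher regions are shNC-specific, a set in which 13.2% of all regions were called higher and 0.979% lower. The 4 lower ones are common, where 10.7% and 15.0% were. By label each of them was thus lower in the libraries called shG8d, which are different libraries in the 2 sets. RUNX1, a transcription factor active in luminal cells, was higher, at 111.1 and 125.9 against 66.4 and 37.5 normalized counts in the shNC-specific set (log2 difference 1.23, SE 0.265, limma adjusted p = 0.00331). CD24, a surface antigen of luminal cells, was at 1.14 (limma adjusted p = 0.0228), but its region is placed at a copy of the gene and its reads are uncertain. The 4 lower genes were AGR2, EHF, TFAP2A and CD14, all common and named here after their values were seen, with log2 differences of −0.84, −0.90, −0.58 and −0.89. EHF is an ETS factor of the same subfamily as ELF5, and CD14 also belongs to the hematopoietic markers. Of the 9 promoters of mammary epithelial markers 2 were higher and 0 lower. These were EPCAM (1.32, limma adjusted p = 0.00526) and CDH1 (1.07, limma adjusted p = 0.00490), both shNC-specific. PDGFRA, the 1 fibroblast marker with a promoter region, was lower in the shG8d-specific set (−1.50, limma adjusted p = 0.00506). The deeper pair is labelled shNC at each of these.

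Partners of the estrogen, prolactin, KIT and XBP1 pathways had 6 of 17 promoters called higher, 1 lower and a median of 0.37. ERN1, the endoplasmic reticulum sensor IRE1 that splices XBP1 RNA, had 69.0 and 88.8 against 39.9 and 29.3 normalized counts in a shNC-specific region (log2 difference 1.17, SE 0.286, limma adjusted p = 0.00699). ATF6, another sensor of the unfolded protein response, had 33.7 and 29.1 against 71.3 and 66.8 in a common region (−1.12, SE 0.287, limma adjusted p = 0.00939). The pairs did not overlap at either gene, and the 2 sensors stood on opposite sides. The deeper pair is labelled shNC at ERN1 and shG8d at ATF6, so by label both were lower in the libraries called shG8d, which are different libraries in the 2 sets. The basal and myoepithelial list had 3 of 18 higher and 1 lower, with a median of 0.17. ITGB4 and LAMA3, of the hemidesmosome and its laminin, were higher (1.45 and 1.02, limma adjusted p = 0.000254 and 0.000518), and the hemidesmosome collagen COL17A1 was lower (−1.33, limma adjusted p = 0.00182). The ITGB4 region is shNC-specific, with the deeper pair labelled shNC. Those of LAMA3 and COL17A1 are common, with the deeper pair labelled shG8d. By label ITGB4 and COL17A1 were thus lower and LAMA3 higher in the libraries called shG8d, which are different libraries in the 2 sets.

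**Figure D4:**
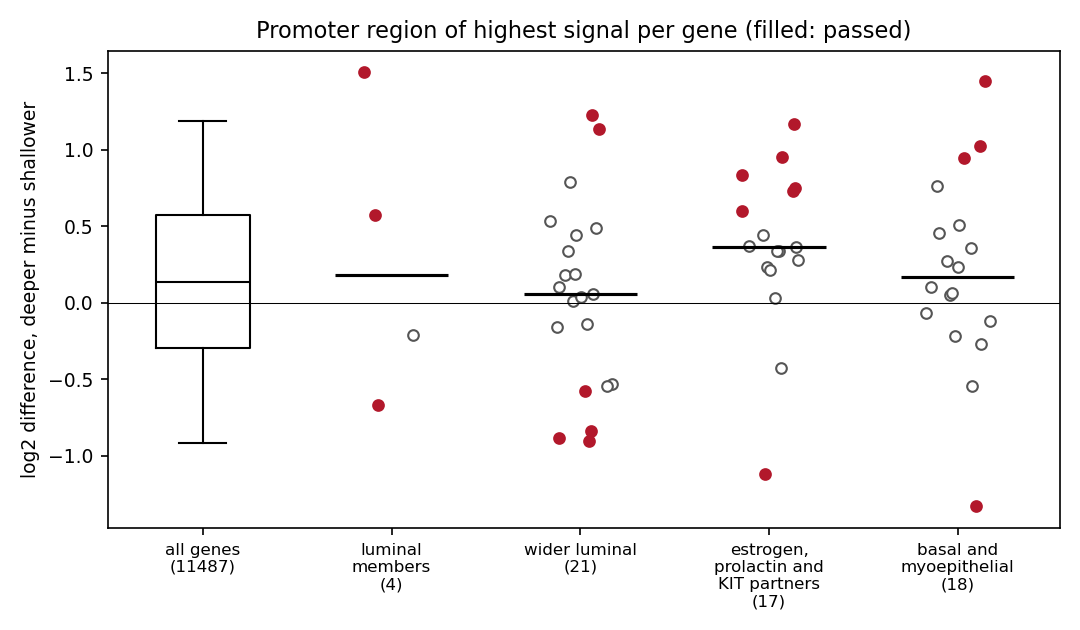
Log2 difference between the deeper and the shallower pair at the promoter region of highest signal, 1 point per gene, for the luminal genes, a wider luminal list, pathway partners and a basal list. Filled points passed (limma adjusted p under 0.05), horizontal lines are medians, and the box shows the quartiles (whiskers, 5th to 95th percentile) of all 11487 genes. Points of each list lie on both sides of 0, with medians of 0.18, 0.06, 0.37 and 0.17.

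These counts depended on the scaling and on the library left out. With equal library totals alone the median of all regions moved by −0.35, 4.44% of all regions were called higher and 28.1% lower, and of the luminal regions 1 was higher and 10 lower, at a median of −0.56 against −0.36 for the table. The 7 regions that gained a call were 4 of ESR1 with the KIT region, the SLPI region at 25529 bp and the XBP1 promoter, all lower and all common. The wider luminal, partner and basal lists then had 1 and 6, 2 and 2, and 2 and 3 promoters higher and lower, where 8.58% and 25.7% of all promoters were. Without deeper library A, 1 luminal region was higher (the ALDH1A3 promoter) and 0 were lower, where 3.52% and 4.44% of all regions were. Without deeper library B the counts were 1 and 2 (4.26% and 6.41% of all regions), without shallower library A 2 and 6 (16.8% and 16.2%), and without shallower library B 3 and 4 (6969 and 6779 of the 58127 regions). The lists had 1, 3 and 3 called promoters without deeper library A, where 8.02% of all promoters were higher and 3.18% lower, and 3, 0 and 3 without deeper library B (8.03% and 5.65%). The basal list had 8 of 18 without shallower library A, where 30.5% and 13.3% of all promoters were called, so its share lies near that of the table.

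**Figure D5:**
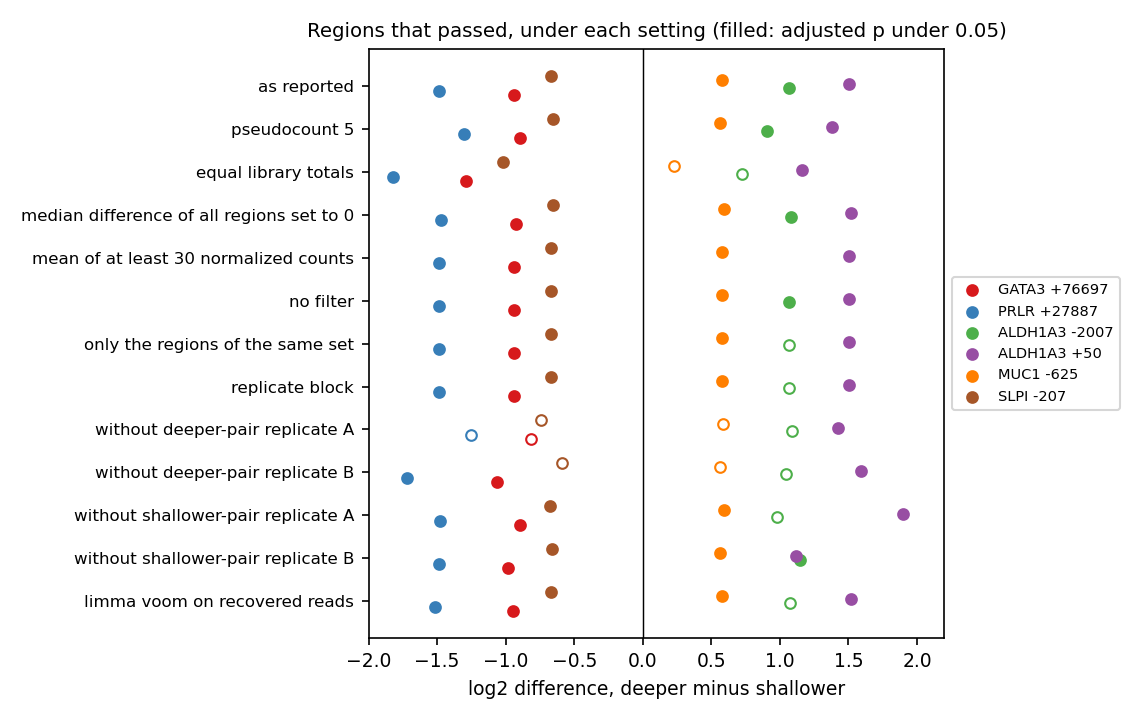
Log2 difference between the deeper and the shallower pair at the 6 luminal regions that passed, under the reported fit and 12 alternatives. Filled points have an adjusted p under 0.05. The ALDH1A3 promoter is filled in every row, and no point crosses 0.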

How the data were processed

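ATAC-seq was analysed in 4 MCF10A libraries, 2 per group. Per the submitters' processing notes, CASAVA 1.4 and genome build hg19 were used, with no role given for either. The aligner, peak caller and counter were not given in the sources used here. Per the file headers, the deposited table gives log10 normalized values per region and library, with a p-value, a log2 fold change, a distance to the nearest TSS and an annotation. The authors' deposited log2 fold change matched the log2 ratio of labelled group means to 0.00920. Their unadjusted p-value, as the authors' deposited table gives it, was under 0.05 at 7 of the 27 luminal regions and at 24.2% of all regions. Symbols are as deposited.

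The deposited log10 values, once unlogged, were multiples of a single step in each column and set (100% of them, tolerance 0.05 reads). The step identified libraries across sets and gave reads per region, whose medians were 65 and 68 (deeper) and 48 and 49 (shallower). A limit of 3 reads equals 2.42 to 3.62 normalized counts, for counting error only.

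Values on the scale log2(normalized count + 1) were tested with limma 3.58.1 in R 4.3.3, allowing for a trend of variance with mean, and adjusted by Benjamini-Hochberg over 58127 regions at 0.05. This understates changes of low regions. At least 10 normalized counts in 2 libraries were required, which removed 0 regions. The test was checked on simulated data. The deposited values are log10 rather than counts. The planned count models were not run on the recovered reads, and limma voom on those reads was added. 

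The luminal genes and all lists were chosen with earlier results of these data known. Values per library are given for each luminal gene, and other genes are named where the promoter region passed with an absolute log2 difference of at least 1. Alternatives were a pseudocount of 5, equal totals, a mean of at least 30 normalized counts, no filter, fits by set, a replicate block and each library left out. Fits by set took the common regions alone, and the shNC-specific and shG8d-specific regions together. Added after seeing the data were voom and centring on the median difference.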

Additional observations from a re-analysis of the deposited data

How the results depend on the processing

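Direction was the same at each of the 27 luminal regions with a pseudocount of 5, centring on the median difference and voom on recovered reads. No filter, a mean of at least 30 normalized counts, fits by set and the replicate block leave each log2 difference as it is by construction, so only their p-values can differ. With A and B as a replicate block, ALDH1A3 at 2007 bp lost its call (1.06, limma adjusted p = 0.0535) and ESR1 at 62499 bp gained one (−0.87, limma adjusted p = 0.0446). The letters are not shown to pair libraries, since A-minus-B differences of the pairs correlated at −0.0039 over regions. With fits by set 6 of 27 luminal regions were lower, against 13.9% of all regions. Equal totals gave 1 luminal region higher and 10 lower, against 4.44% and 28.1% of all regions. In that fit 4 of 17 partner promoters were called, where 8.58% of all promoters were called higher and 25.7% lower. With each library left out, regions called ranged from 4629 to 19153, luminal regions higher from 1 to 3 and lower from 0 to 6, and called promoters from 1 to 9 in the wider list, 0 to 7 in the partners and 3 to 8 in the basal list. A fit without 1 library assumes that the lone library varies like the other pair.

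Sign changes were all at regions that did not pass. With equal totals they were ESR1 at −21426 (−0.057) and 91976 bp (−0.078), PRLR at −86567 (−0.32), −82875 (−0.0065) and −12091 bp (−0.091), SLPI at 1123 bp (−0.22) and XBP1 at 1110 bp (−0.29). Over fits that leave out 1 library, the range crossed 0 at ALDH1A3 −119797 bp (−0.81 to 0.28), ESR1 −21426 bp (−0.064 to 0.63), FOXA1 14727 bp (−0.90 to 0.074), GATA3 83983 bp (−0.47 to 0.23), GATA3 105354 bp (−0.42 to 0.30), PRLR −86567 bp (−0.18 to 0.23), PRLR −82875 bp (−0.071 to 0.75), PRLR −12091 bp (−0.068 to 0.58) and XBP1 1110 bp (−0.059 to 0.19). The cause was not tested. Low reads limit the distal regions, of which several hold under 50 reads per library. The planned edgeR, DESeq2 and TMM alternatives were not run.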
